A study of Mus musculus with 17 samples.

Results

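A set of 10 mitotic motor and spindle genes is described here across 4 genotypes of mouse cerebellum. The genes were listed by name, with earlier results of these data known. They are the kinesins Kif11, Kif20a, Kif20b, Kif23, Kif2c, Kif4 and Kif18a, and the microtubule-associated genes Tpx2, Prc1 and Nusap1. All 10 were found among the 31517 genes obtained by adding the transcripts of each gene and the 2 sequencing lanes of each sample.

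RNA was sequenced from whole cerebella of C57BL/6 mice at postnatal day 3, after removal of the meninges, and every mouse carried Math1-Cre, a recombinase active in the dividing progenitors of granule neurons. The Atr-Bax-Bak group (5 libraries) had Atr-loxP/loxP together with Bax-loxP/loxP and Bak--/-, and its Bax-Bak controls (4 libraries) had Bax-loxP/loxP and Bak--/- without floxed Atr. The Atr-p53 group had Atr-loxP/loxP with p53-loxP/loxP (5 libraries, of which 4 were used), and its p53 controls (3 libraries) had p53-loxP/loxP without floxed Atr. Every control therefore already carried floxed or null alleles of the genes of its background, and there was no group without such alleles. Cre is taken to delete mainly in the granule lineage, so most other cells of the cerebellum would keep floxed Atr, Bax and p53. Which cells recombined was not measured here. Bak, in contrast, is null in all cells.

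Kinesins are motor proteins that walk along microtubules or take them apart. In mitosis some of them build the spindle and move chromosomes, and others gather at the midzone, the overlap of antiparallel microtubules between the separating chromosomes, where cytokinesis is prepared. Their genes are transcribed mainly in late G2 and mitosis, so their RNA is read as a sign of dividing cells. At postnatal day 3 the main dividing cells of the mouse cerebellum are the granule progenitors of the external layer. Atr encodes the kinase that signals from stalled DNA replication, Bax and Bak are effectors of mitochondrial apoptosis, and p53 is a transcription factor that halts the cell cycle or triggers apoptosis after DNA damage.

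Promoter sequence is shown for 4 of the genes because cell-cycle genes of this class often carry the cell cycle homology element TTTGAA and the box CCAAT near their start. The sequences are from RefSeq (GRCm38.p6), read on the strand of the gene from 70 bases before the start to 30 after it. Capitals mark TTTGAA or CCAAT or the reverse complement of either, TTCAAA or ATTGG. Kif11 and Kif23 hold both elements, Kif20b holds TTTGAA in tandem, and Nusap1 holds neither.
Kif11 (chr19:37376312-37376411, plus strand): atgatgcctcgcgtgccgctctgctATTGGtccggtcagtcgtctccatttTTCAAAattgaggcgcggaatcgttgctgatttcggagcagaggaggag
Kif23 (chr9:61946770-61946869, minus strand): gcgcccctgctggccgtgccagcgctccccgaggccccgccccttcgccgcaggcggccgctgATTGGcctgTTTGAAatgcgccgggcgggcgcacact
Kif20b (chr19:34922288-34922387, plus strand): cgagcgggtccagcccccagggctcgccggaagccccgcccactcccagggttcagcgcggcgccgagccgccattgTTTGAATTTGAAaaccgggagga
Nusap1 (chr2:119618228-119618327, plus strand): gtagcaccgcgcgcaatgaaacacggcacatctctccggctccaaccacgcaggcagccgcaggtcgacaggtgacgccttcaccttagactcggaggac

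Promoter windows of 250 bases before to 50 bases after the start were searched for 8 of the 10 genes, without Kif20a and Tpx2. Windows on chromosome 18, where Kif20a lies, were left out for the 10 genes but not for the other sets of windows. TTTGAA on either strand was found in the windows of 6 genes (Kif11, Kif20b, Kif23, Kif2c, Kif4 and Prc1), and CCAAT on either strand in those of 4, Kif11, Kif23, Kif4 and Prc1, which thus held both. The RefSeq start lay within 28 bases of the GENCODE start of the most abundant transcript for 6 of the 8 genes, but not for Kif2c, whose main transcript starts 3867 bases further upstream, nor for Kif4, whose main transcript starts 328 bases upstream. For Kif2c and Kif4 the match in the window is therefore not one beside the start of the RNA that was mostly counted. Counted over windows, since Prc1 has more than 1, TTTGAA stood in 77.8% of the 9 windows of the listed genes and in 17.9% of all 32851 windows. CCAAT stood in 55.6% of their windows and in 37.4% of all windows. Among 26 kinesins and light chains, most of them of intracellular transport and cilia, 14.3% of 21 windows held TTTGAA. The motifs do not overlap each other, and a match describes only these letters in these windows. Kif18a and Nusap1, whose windows held neither element, are compared with the others below.

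The 16 deep libraries held 42987953 to 100659645 estimated counts, and each of the 10 genes had at least 832 counts in each of them. The library of Atr-p53 replicate 3 held 13601 counts in all, with 9 counts for the 10 genes together, and was left out. Levels are given in CPM, counts scaled to the size of the library, with TMM scaling over the 16 deep libraries. Fold changes are on the log2 scale from edgeR's quasi-likelihood test, each with its standard error (SE), and a gene is said to have risen or fallen where its Benjamini-Hochberg adjusted p over all genes tested was under 0.05. Separate animals are not stated in the labels, so p-values reflect only how far these samples spread, which may be technical. Atr RNA summed over its transcripts averaged 40.0 ± 3.06 CPM in Atr-Bax-Bak libraries and 43.4 ± 3.99 CPM in Bax-Bak controls, and 37.1 ± 2.84 CPM in Atr-p53 libraries and 37.0 ± 1.11 CPM in p53 controls (SD, n = 5, 4, 4 and 3), with edgeR adjusted p-values of 0.280 and 0.977. Whole-gene counts from whole cerebellum therefore did not separate the Atr genotypes, and the part of Atr that Cre removes is not given in the labels. Bak1, the mouse gene of Bak, averaged 0.431 CPM in Atr-Bax-Bak libraries and 0.363 CPM in Bax-Bak controls, against 38.3 CPM in Atr-p53 libraries and 39.7 CPM in p53 controls. The other floxed genes did differ between backgrounds. In the same order of groups, Bax averaged 32.4 and 34.0 CPM, against 65.3 and 66.3 CPM. Trp53, the mouse gene of p53, averaged 69.5 and 68.8 CPM, against 38.5 and 37.6 CPM.

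Without Bax and Bak, all 10 genes fell in the cerebella with floxed Atr. Their median log2 fold change was -0.85, a fold of 0.554, and the range ran from -0.97 for Kif11 to -0.55 for Prc1. In this comparison 22% of the 17425 genes tested fell, 44.5% changed in either direction, and the median of all genes tested was 0.04. For each of the 10 genes the 5 Atr-Bax-Bak libraries lay below the 4 Bax-Bak controls without overlap, and such a separation, in either direction, was found for 38.3% of all genes tested. All Atr-Bax-Bak samples carry 1 number series in their names (1836) and no control carries it, so series and genotype cannot be told apart here. Set against the controls of either of their 2 series alone, 100019 or 1842, all 10 genes were again called lower, with medians of -0.80 and -0.93. In RNA of whole tissue, fewer cells that express a gene and less of its RNA per cell cannot be told apart.

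**Figure D1:**
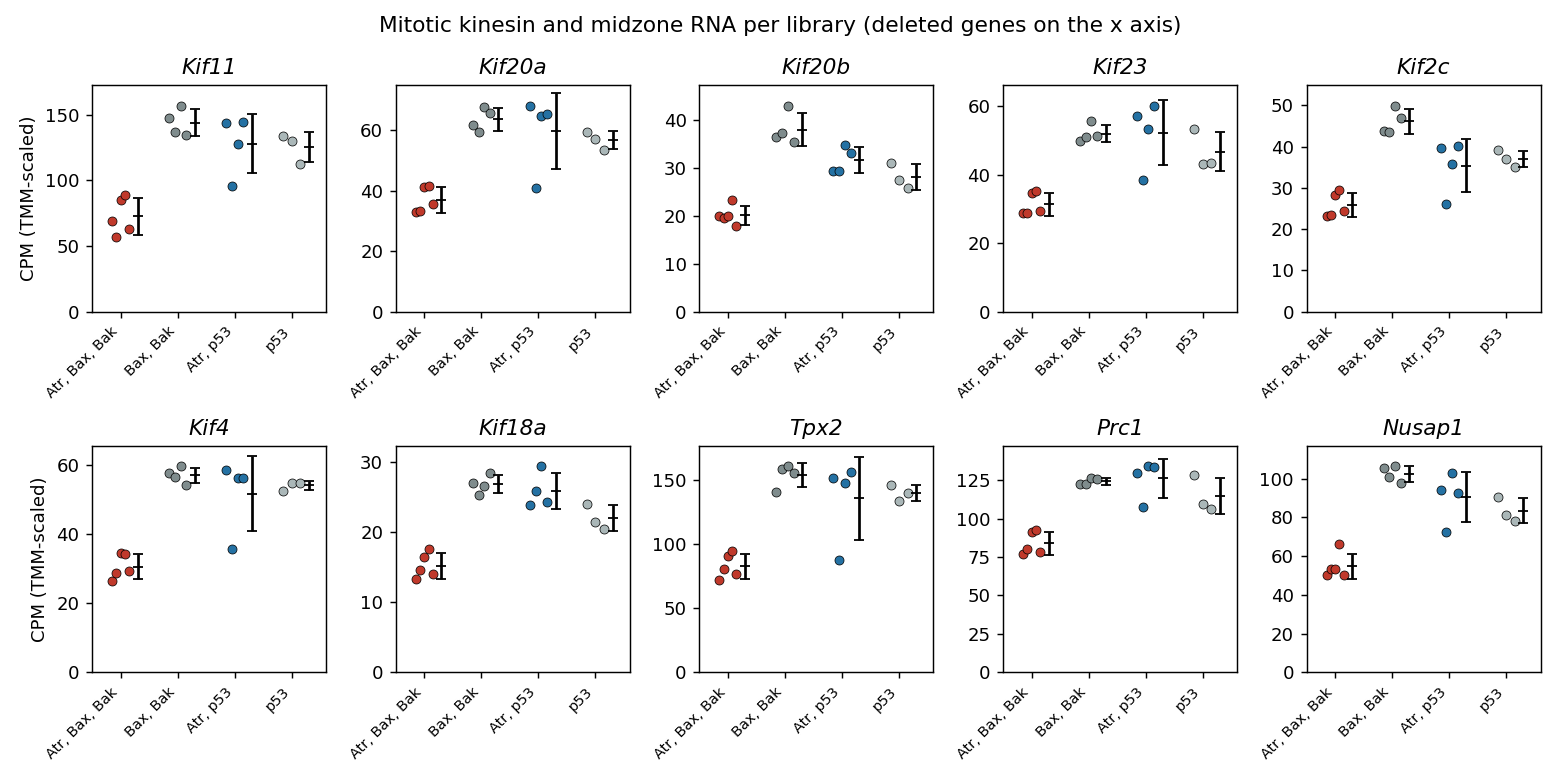
CPM of each of the 10 genes (y axis, TMM-scaled, from 0) in each of the 16 deep libraries, grouped by genotype on the x axis; points are libraries, and the bar beside them is the mean with the SD. In each panel the 5 Atr-Bax-Bak points lie below the 4 Bax-Bak points, while Atr-p53 points overlap the p53 points and 1 of them, replicate 2, lies low for most genes.

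Among the genes that assemble the spindle and separate its poles, Kif11 had the largest difference of the 10. Kif11 (chromosome 19, 37376403 to 37421859, GRCm38) encodes the kinesin that slides antiparallel microtubules apart and so separates the poles. Its level was 68.9, 56.6, 85.2, 88.6 and 62.8 CPM in the Atr-Bax-Bak libraries, against 147, 137, 157 and 135 CPM in the Bax-Bak controls. The groups were separated by a wide gap, and Kif11 also varied most between the Atr-Bax-Bak libraries, with replicate 2 lowest. Kif11 fell by 0.97 ± 0.13 (log2, SE; edgeR adjusted p = 0.000276). Tpx2 (chromosome 2, 152847964 to 152895321), which nucleates microtubules near chromosomes and activates the kinase Aurora A, stood at 71.6, 80.2, 90.3, 94.6 and 76.2 CPM in the Atr-Bax-Bak libraries, against 140, 159, 160 and 155 CPM in the Bax-Bak controls. Its highest Atr-Bax-Bak library lay well below its lowest control, and it fell by 0.88 ± 0.08 (edgeR adjusted p = 1.73e-05). Nusap1 (chromosome 2, 119618298 to 119651244), which bundles and stabilizes spindle microtubules near chromosomes, stood at 50.0, 53.1, 53.4, 66.3 and 50.3 CPM in the Atr-Bax-Bak libraries, against 105, 101, 106 and 97.7 CPM in the Bax-Bak controls. Replicate 4 was its highest Atr-Bax-Bak library and still lay below each control, and Nusap1 fell by 0.89 ± 0.08 (edgeR adjusted p = 1.12e-05).

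The motors that act on chromosomes and their microtubule attachments also fell. Kif18a (chromosome 2, 109280738 to 109341747) encodes a kinesin that dampens the movements of aligned chromosomes. It was at 13.2, 14.5, 16.5, 17.6 and 13.9 CPM in the Atr-Bax-Bak libraries, against 26.9, 25.3, 26.6 and 28.4 CPM in the Bax-Bak controls, and fell by 0.81 ± 0.09 (edgeR adjusted p = 3.48e-05). Kif2c (chromosome 4, 117159639 to 117182639), a kinesin that removes tubulin from microtubule ends and corrects faulty attachments at centromeres, was at 23.2 to 29.5 CPM in Atr-Bax-Bak libraries and 43.6 to 50.0 CPM in Bax-Bak controls. It fell by 0.82 ± 0.08 (edgeR adjusted p = 2.16e-05).

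Of the 5 midzone and cytokinesis genes, Prc1 had the smallest difference and the highest level per length. Prc1 (chromosome 7, 80294450 to 80316259) encodes the protein that cross-links the antiparallel microtubules of the midzone. It was at 77.2, 80.2, 91.0, 92.3 and 78.5 CPM in the Atr-Bax-Bak libraries, against 123, 122, 127 and 126 CPM in the Bax-Bak controls, and fell by 0.55 ± 0.06 (edgeR adjusted p = 3.54e-05). The controls lay within a narrow band, and no Atr-Bax-Bak library reached it. Kif4 (chromosome X, 100625737 to 100727214), the chromosome-bound kinesin that Prc1 recruits to limit the length of the overlap, was at 26.5 to 34.4 CPM in Atr-Bax-Bak libraries and 54.0 to 59.6 CPM in Bax-Bak controls and fell by 0.88 ± 0.08 (edgeR adjusted p = 1.24e-05).

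The remaining 3 midzone genes encode kinesins of the kinesin-6 family. Kif23 (chromosome 9, 61915905 to 61946774), the motor of centralspindlin, the complex that directs the cleavage furrow, was at 28.7, 28.8, 34.6, 35.3 and 29.3 CPM in the Atr-Bax-Bak libraries, against 50.0, 51.1, 55.8 and 51.3 CPM in the Bax-Bak controls. It fell by 0.72 ± 0.07 (edgeR adjusted p = 3.08e-05), the second smallest difference of the 10. Kif20a (chromosome 18, 34624613 to 34633277), which carries the chromosomal passenger complex to the midzone, was at 33.1 to 41.6 CPM in Atr-Bax-Bak libraries and 59.4 to 67.8 CPM in Bax-Bak controls, and fell by 0.77 ± 0.08 (edgeR adjusted p = 3.00e-05). Kif20b (chromosome 19, 34922361 to 34975745), which acts late in cytokinesis and is needed for normal cortical growth in mice, was at 20.0, 19.5, 20.0, 23.3 and 17.8 CPM in the Atr-Bax-Bak libraries, against 36.3, 37.2, 42.9 and 35.3 CPM in the Bax-Bak controls. It fell by 0.90 ± 0.08 (edgeR adjusted p = 1.25e-05). Kif18a and Nusap1, the genes without TTTGAA or CCAAT in their windows, lay within the range of the genes that hold them.

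Without p53, none of the 10 genes passed the test between Atr-p53 libraries and p53 controls. Their log2 fold changes ran from -0.06 to 0.24 with a median of 0.11, 7 of them positive, and the groups overlapped for each gene. Overlap was the usual case here, since only 8.18% of all genes tested had groups without overlap, in either direction. Few genes passed the test in this comparison at all: 8 of 17361, or 0.0461%, were called by edgeR, against 128 by DESeq2 and 4 by limma-voom, none of them among the 10, while 1142 genes had an unadjusted edgeR p under 0.05. The 1 listed gene with an unadjusted p under 0.05 was Kif18a, at 23.8, 25.8, 29.3 and 24.2 CPM in the Atr-p53 libraries, against 24.0, 21.4 and 20.4 CPM in the p53 controls (log2 fold change 0.24 ± 0.11, SE; edgeR adjusted p = 0.748). Over the 10 genes the 95% intervals of the log2 fold change reached from -0.44 to 0.53, and all 10 estimates without Bax and Bak lay below that span.

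**Figure D2:**
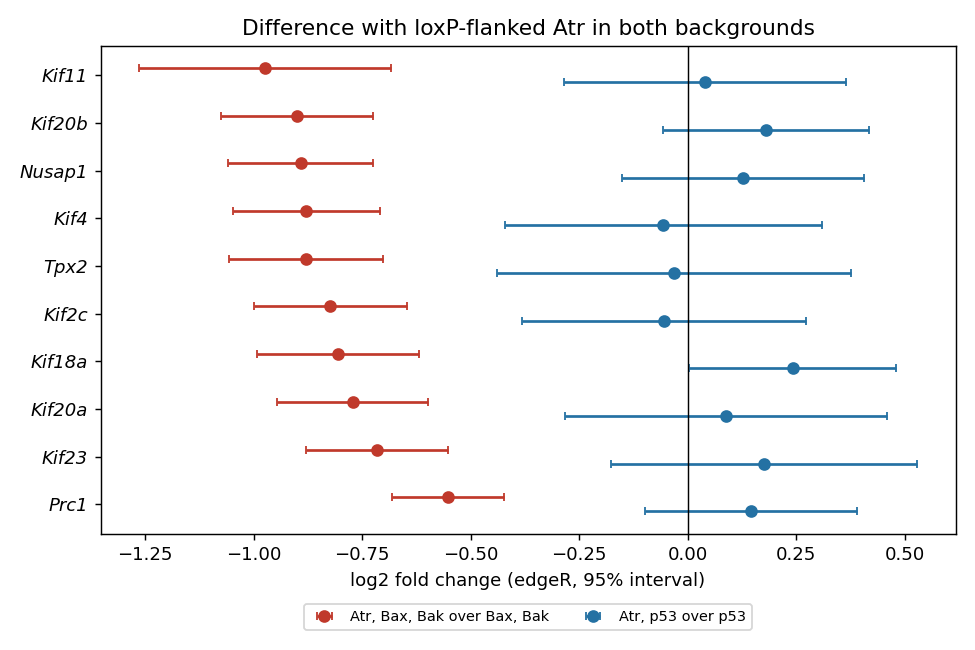
Log2 fold change (x axis) of each of the 10 genes (y axis) with floxed Atr, as the edgeR estimate with its 95% interval, for Atr-Bax-Bak over Bax-Bak in red and Atr-p53 over p53 in blue. The red intervals lie wholly below 0, from -0.97 for Kif11 to -0.55 for Prc1, and the blue estimates lie between -0.06 and 0.24.

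One library, Atr-p53 replicate 2, stood apart from the other 3 of its group. Kif11 was at 144, 95.9, 128 and 144 CPM in the Atr-p53 libraries, against 134, 130 and 112 CPM in the p53 controls, the second value being replicate 2. Tpx2 was at 151, 87.5, 147 and 156 CPM in the Atr-p53 libraries, against 146, 133 and 140 CPM in the p53 controls. In replicate 2 the 10 genes stood at 57.7% (Tpx2) to 100% (Kif18a) of the mean of the other 3 libraries, and it was the lowest of its group for 8 genes. Kif20b, at 90.7%, and Kif18a were its least reduced genes. Its summed granule progenitor markers stood at 80.5% of the mean of the other 3 and its transport kinesins at 102%, and their part in the result was not tested. Without replicate 2, all 10 log2 fold changes between Atr-p53 libraries and p53 controls were positive with a median of 0.22, 6 had an unadjusted p under 0.05, and none was called (lowest edgeR adjusted p = 0.438). Against the single p53 control whose sample name shares the number series of all Atr-p53 libraries, 1843, the median was -0.02 and none was called.

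Tested directly, the difference with floxed Atr was lower without Bax and Bak than without p53 for all 10 genes. The interaction ran from -1.09 ± 0.13 for Kif20b to -0.70 ± 0.12 for Prc1 (log2, SE), with edgeR adjusted p-values of 9.18e-05 for Kif20b to 0.00958 for Tpx2. By the same test 8.05% of 18189 genes were lower and 16.1% differed in either direction. Kif18a (-1.05 ± 0.14), Nusap1 (-1.03 ± 0.15) and Kif11 (-1.02 ± 0.20) followed Kif20b. The order was not that seen without Bax and Bak alone, where Kif11 led. Without Atr-p53 replicate 2 all 10 were again called, with a median of -1.02 in place of -0.88. With the series 1843 control as the single p53 control, 3 were called, Kif20b at -0.94 (adjusted p = 0.0111), Kif18a at -0.93 (adjusted p = 0.0161) and Nusap1 at -0.91 (adjusted p = 0.0275), all by edgeR, and the other 7 were negative with adjusted p-values of 0.0688 to 0.168.

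Levels were also set side by side between backgrounds, after scaling the 2 deposited tables together. The Atr-Bax-Bak libraries were lower than the Atr-p53 libraries for all 10 genes, by 0.82 (Kif11) to 0.46 (Kif2c) on the log2 scale, where 22.8% of all 18189 genes were lower, 24.3% higher and 47.1% different in either direction, with edgeR adjusted p-values of 3.62e-06 to 0.00231. Between the controls, Kif20b alone passed the test: 36.3, 37.2, 42.9 and 35.3 CPM in Bax-Bak controls, against 31.1, 27.4 and 25.8 CPM in p53 controls, a log2 difference of 0.43 ± 0.10 (SE; edgeR adjusted p = 0.00797), where 8.71% of all genes were higher, 9.32% lower and 18% different in either direction. With the series 1843 control as the single p53 control it was 0.29 (edgeR adjusted p = 0.249), and over the other alternatives 1 to 4 genes were called. All 10 estimates between the controls were positive, with a median of 0.18. Ordered by mean CPM, the Atr-Bax-Bak group was last for each of the 10 genes, and it overlapped the group next above it for Kif2c and Tpx2. The other 3 groups overlapped their neighbours in that order for each gene, except that Bax-Bak controls lay apart from the next group for Kif20b and Kif2c. Taken as pairs of groups, the Bax-Bak and p53 controls lay apart for 6 of the 10 genes, against 31.5% of all genes tested. The Atr-Bax-Bak and Atr-p53 libraries lay apart for 7 of the 10, against 39.7% of all genes tested. Both shares count either direction. The background, the table and the sample-name series cannot be told apart in these comparisons.

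Per kilobase of transcript, the mean level of Prc1 was the highest of the 10 genes in each group, at 33.5 ± 2.24 CPM per kilobase in Atr-Bax-Bak libraries and 45.8 ± 1.75 CPM per kilobase in Bax-Bak controls (SD, n = 5 and 4), and 46.8 ± 4.03 CPM per kilobase in Atr-p53 libraries and 42.7 ± 3.18 CPM per kilobase in p53 controls (SD, n = 4 and 3). Tpx2 followed in each group, at 22.5 CPM per kilobase in Atr-Bax-Bak libraries and 41.7 CPM per kilobase in Bax-Bak controls. Kif20b was the lowest in each group, at 3.61 CPM per kilobase in Atr-Bax-Bak libraries and 6.82 CPM per kilobase in Bax-Bak controls. Kif11 and Prc1 had the largest and the smallest fall of the 10 genes without Bax and Bak, so their ratio restates that difference and is no further support. The ratio of Kif11 to Prc1 CPM was 0.705 to 0.960 in Atr-Bax-Bak libraries and 1.07 to 1.24 in Bax-Bak controls, without overlap. That ratio was 0.893 to 1.11 in Atr-p53 libraries and 1.04 to 1.18 in p53 controls, which overlapped.

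The transcripts behind the gene sums were also examined. In 6 of the 10 genes over 90% of the estimated counts fell to 1 transcript in each group, and 3 of these, Kif11, Kif20b and Kif23, have a single transcript in the tables. Prc1 has 13, of which the most abundant took 37.0% ± 2.99 of the gene in Atr-Bax-Bak libraries and 48.7% ± 3.03 in Bax-Bak controls (SD, n = 5 and 4), with ranges of 34.5% to 42.2% and of 44.3% to 50.6%. The share was 47.6% ± 3.16 in Atr-p53 libraries and 44.2% ± 3.67 in p53 controls (SD, n = 4 and 3). Taken alone, this transcript fell by 0.94 in Atr-Bax-Bak libraries (edgeR adjusted p = 8.5e-05), against 0.55 for the sum of the gene. The 2 transcripts of Kif20a differ little in length, and the share of the first varied from 28.4% to 60.3% among Atr-Bax-Bak libraries and from 39.8% to 78.8% among Bax-Bak controls, so no difference between its transcripts is read. Other genes annotated on the opposite strand cover 29.3% of the exonic bases of Kif20a (Cdc23), 15.1% of Kif4 (Pdzd11), 11.1% of Prc1 (Rccd1) and 4.24% of Nusap1 (Oip5). The library type was stranded, but whether counting used the strand is not given in the sources used here, so values of these 4 genes are less certain. At most 6.35% of the 31-base words of any of the 10 genes (Kif11) also occur in another gene.

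The genes that work with these 10 were followed in lists. All 6 other mitotic kinesins fell without Bax and Bak, with a median log2 fold change of -0.68, where 22% of all genes tested fell. Kif15, which helps Kif11 to keep the poles apart, was at 33.0 ± 4.00 CPM in Atr-Bax-Bak libraries and 60.0 ± 1.43 CPM in Bax-Bak controls (SD, n = 5 and 4) and fell by 0.85 ± 0.08 (edgeR adjusted p = 1.55e-05). Kif22, which pushes chromosome arms outward, fell by 0.83 ± 0.08 (edgeR adjusted p = 1.87e-05), and Cenpe, which carries chromosomes to the spindle equator, by 0.66 ± 0.08 (edgeR adjusted p = 0.000122).

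Of 13 genes of the chromosomal passenger complex, centralspindlin and abscission, 10 fell, 1 rose and 2 did not pass the test, with a median of -0.72. Of all genes tested, 22% fell and 22.5% rose. Racgap1, the partner of Kif23 in centralspindlin, was at 107 ± 9.33 CPM in Atr-Bax-Bak libraries and 184 ± 5.16 CPM in Bax-Bak controls (SD, n = 5 and 4) and fell by 0.77 ± 0.06 (edgeR adjusted p = 6.71e-06). Aurkb, the kinase of the passenger complex that Kif20a carries, fell by 0.81 ± 0.07, and Birc5, another of its subunits, by 0.85 ± 0.07 (edgeR adjusted p = 9.23e-06 and 9.54e-06). The gene that rose was Cit, which encodes the citron kinase of the midbody, at 0.22 (edgeR adjusted p = 0.0277), and the 2 that did not pass were Pdcd6ip and Chmp4b, membrane-scission factors also used outside division. These 3 genes, and the next list's exceptions, were named after their values were seen.

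Of 20 spindle assembly and microtubule-associated factors, 16 fell, 1 rose (Ckap2, at 0.21) and 3 did not pass (Numa1, Ckap5 and Clasp2), with a median of -0.46. The shares over all genes tested were again 22% lower and 22.5% higher. Dlgap5, which stabilizes the microtubules that hold kinetochores, was at 20.2 ± 1.82 CPM in Atr-Bax-Bak libraries and 37.2 ± 2.96 CPM in Bax-Bak controls (SD, n = 5 and 4) and fell by 0.87 ± 0.08 (edgeR adjusted p = 1.23e-05). Ckap2l fell by 0.82 ± 0.07 and Spag5, a spindle and kinetochore protein, by 0.61 ± 0.06 (edgeR adjusted p = 8.57e-06 and 1.38e-05).

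Further kinesins and light chains, most of them of axonal and ciliary transport, which serves non-dividing cells as well, were followed for comparison. They are called transport kinesins here, though not each is known as a transport motor. Of 26 transport kinesins and light chains 11 rose, 3 fell and 12 did not pass without Bax and Bak, with a median of 0.18, where 22.5% of all genes rose and 22% fell. Kif26b rose by 0.30 ± 0.04, Kif21a by 0.40 ± 0.05 and Kif17, a motor of dendrites and cilia, by 0.77 ± 0.11 (edgeR adjusted p = 0.000102, 0.000130 and 0.000182). Without p53 none of the 65 genes of these 4 lists passed the test between Atr-p53 libraries and p53 controls. In the interaction 5 of the 6 other mitotic kinesins, 9 of the 13 passenger, centralspindlin and abscission genes and 10 of the 20 spindle factors were lower, and 7 of the 26 transport kinesins were higher, where 8.05% of all genes were lower and 8.05% higher. With the series 1843 control as the single p53 control these counts were 0, 4, 5 and 1. The count of transport kinesins was also 3 without Bax-Bak replicate 2, Atr-Bax-Bak replicate 5, p53 replicate 2 or p53 replicate 3, and 4 without Atr-Bax-Bak replicate 2.

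**Figure D3:**
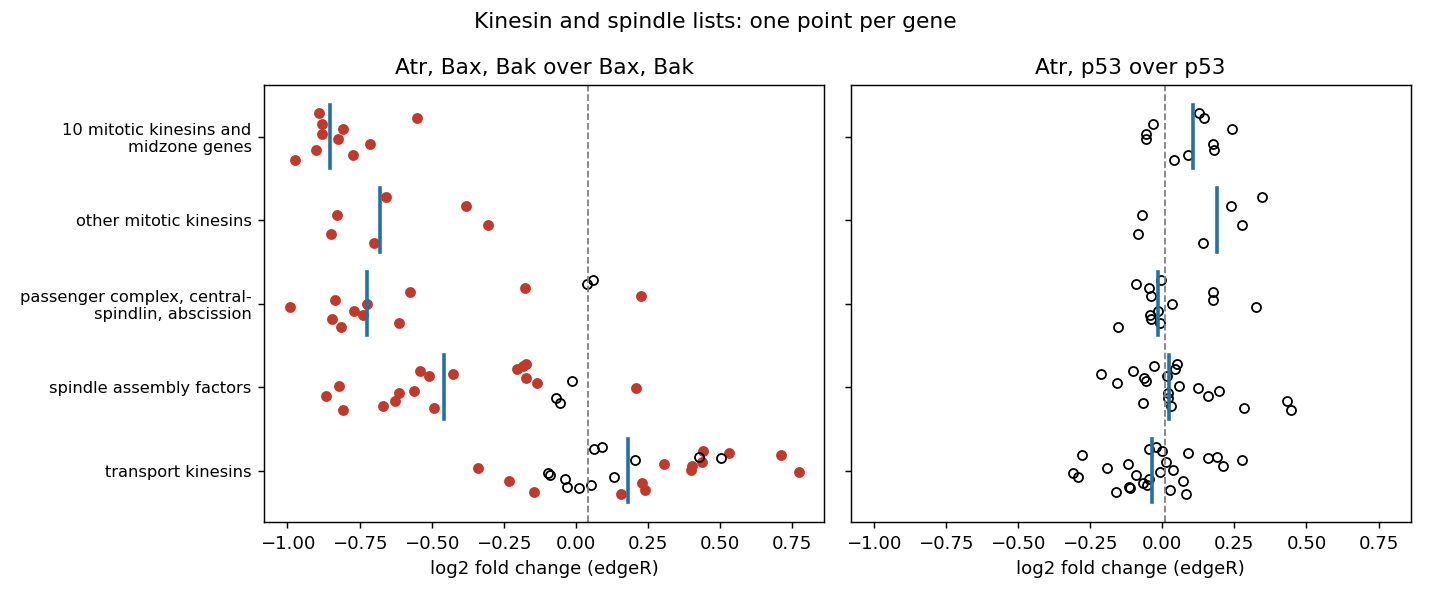
Log2 fold change (x axis, edgeR) of each gene in the 5 lists on the y axis, with 1 point per gene, for Atr-Bax-Bak over Bax-Bak at left and Atr-p53 over p53 at right. Filled red points passed the test and open points did not; blue bars are list medians, and the dashed line is the median of all genes tested. At left the 4 mitotic lists lie mostly below 0, with medians of -0.85 to -0.46, and the transport kinesins lie around a median of 0.18, while every point at right is open.

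Most markers listed for granule progenitors moved in the same direction as the 10 genes without Bax and Bak. Of 12 granule progenitor markers 11 fell and 1 rose there, with a median of -0.60, where 22% of all genes fell and 22.5% rose. The summed level of the markers was 1814 to 2090 CPM in Atr-Bax-Bak libraries and 2463 to 3111 CPM in Bax-Bak controls. Without p53 none passed the test, with a median of -0.22, and the sum was 1769 to 2222 CPM in Atr-p53 libraries and 2236 to 2315 CPM in p53 controls. Atoh1, the transcription factor from which Math1-Cre takes its name and a defining progenitor gene, was at 15.5 to 21.9 CPM in Atr-Bax-Bak libraries and 27.2 to 30.7 CPM in Bax-Bak controls, and at 15.2 to 23.9 CPM in Atr-p53 libraries and 24.5 to 30.4 CPM in p53 controls. The ranges of Atoh1 did not overlap in either background. Such a separation was found for 38.3% of all genes tested without Bax and Bak and for 8.18% without p53. Atoh1 is 1 of the 12 markers, and at these levels their sum rests mostly on the others. Whether the others are confined to dividing cells was not tested. Atoh1 did not pass the test without p53 (edgeR adjusted p = 0.692). The log2 fold changes of the 12 markers there ran from -0.55 to 0.29. The summed CPM of the 10 genes was 412 to 523 in Atr-Bax-Bak libraries and 791 to 853 in Bax-Bak controls, and 559 to 806 in Atr-p53 libraries and 670 to 758 in p53 controls. Divided by the progenitor sum, it was 0.221, 0.211, 0.237, 0.263 and 0.231 in the Atr-Bax-Bak libraries. In the Bax-Bak controls this ratio was 0.313, 0.321, 0.274 and 0.256. The groups overlapped only by replicate 4 of each, at 0.263 and 0.256. The progenitor sums of the Bax-Bak controls were 2532, 2463, 3111 and 3110 CPM, so their ratios also differed by number series. Whether the 10 genes fell more than the progenitor markers was not tested. The ratio was 0.316 to 0.366 in Atr-p53 libraries and 0.289 to 0.339 in p53 controls, which overlapped.

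**Figure D4:**
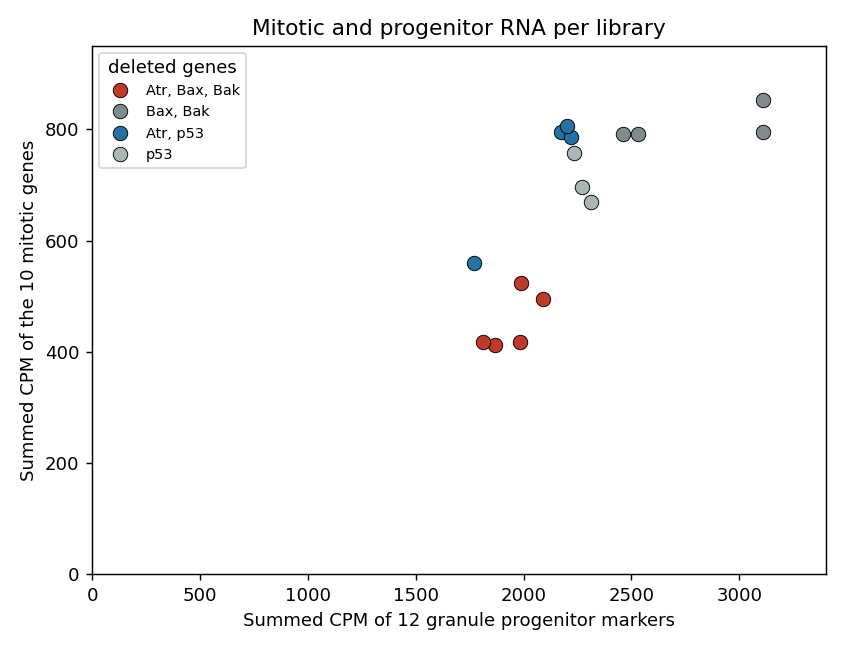
Summed CPM of the 10 mitotic genes (y axis) against summed CPM of 12 granule progenitor markers (x axis), both from 0, with 1 point per deep library coloured by genotype. The 5 Atr-Bax-Bak points lie at 412 to 523 CPM on the y axis, below all Bax-Bak points at 791 to 853 CPM, and 1 Atr-p53 point, replicate 2, lies at 559 CPM, apart from the other 3.

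Markers of several other cell types rose without Bax and Bak, where 22.5% of all genes rose and 22% fell, while those of granule neurons fell. Genes of astrocytes and Bergmann glia rose in 9 of 10 cases and fell in 1, their sum being 5314 to 6716 CPM in Atr-Bax-Bak libraries and 4019 to 4516 CPM in Bax-Bak controls. In the oligodendrocyte lineage 7 of 10 rose and 1 fell, with a sum of 1355 to 2866 CPM in Atr-Bax-Bak libraries and 802 to 1374 CPM in Bax-Bak controls. Microglial markers rose in 8 of 10 cases, with a sum of 151 to 187 CPM in Atr-Bax-Bak libraries and 100.2 to 136 CPM in Bax-Bak controls. Markers of GABAergic interneurons and of Purkinje cells rose in 7 of 8 cases each and none fell, with sums of 419 to 503 CPM and 2606 to 3734 CPM in Atr-Bax-Bak libraries, against 313 to 388 CPM and 2124 to 2475 CPM in Bax-Bak controls. Markers of granule neurons fell in 7 of 12 cases and none rose, with a sum of 2912 to 3309 CPM in Atr-Bax-Bak libraries and 3995 to 4759 CPM in Bax-Bak controls. Endothelial and pericyte genes rose in 3 of 8 cases, with a sum of 591 to 669 CPM in Atr-Bax-Bak libraries and 475 to 619 CPM in Bax-Bak controls. That count was 0 without Atr-Bax-Bak replicate 5 and 1 without Atr-Bax-Bak replicate 2 or Bax-Bak replicate 3. None of the 8 markers of meninges and choroid plexus passed the test, and their sum varied widely, from 585 to 3230 CPM in Atr-Bax-Bak libraries and from 432 to 4701 CPM in Bax-Bak controls. The controls split by series, with 4701 and 2569 CPM in series 100019 and 477 and 432 CPM in series 1842. Of these 8 markers 1 was called by DESeq2, 1 without Bax-Bak replicate 3 and 2 without Bax-Bak replicate 4. Against the Bax-Bak controls of series 1842 alone, calls in either direction numbered 3 of 8 for Purkinje markers in place of 7, 5 of 10 for the oligodendrocyte lineage in place of 8, 5 of 8 for endothelial cells and pericytes, and 2 of 8 for meninges and choroid plexus. Against those of series 100019 alone the last 2 lists had 1 and 4 calls. The calls of meninges and choroid plexus were all higher against series 1842 and all lower against series 100019. Without p53 no marker of any of these lists passed the test, no marker was at 0 in any deep library, and the part of cell makeup in the fall of the 10 genes was not tested.

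Set against their group means, the 10 genes mostly moved together over the 16 libraries taken as a whole. After subtracting group means, the Pearson correlation of log2(CPM + 1) between pairs of the 10 genes had a median of 0.799 over 45 pairs in 16 libraries, a description only, since depth and tissue makeup of a library touch all 10 genes. The closest pair was Kif2c and Kif20a, at 0.974, and the most distant Kif18a and Kif4, at 0.252. Atr-p53 replicate 2 weighs on these values. It lay at -0.41 for Kif2c, -0.51 for Kif20a and -0.50 for Kif4 from the group mean (log2), but at 0.01 for Kif18a. Correlations without this library were not computed. Atr-Bax-Bak replicate 4 had the highest level of its group for 9 of the 10 genes, and replicate 1 the lowest for 8. Bax-Bak replicate 3 and p53 replicate 1 were each the highest of their group for 9 genes.

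**Figure D5:**
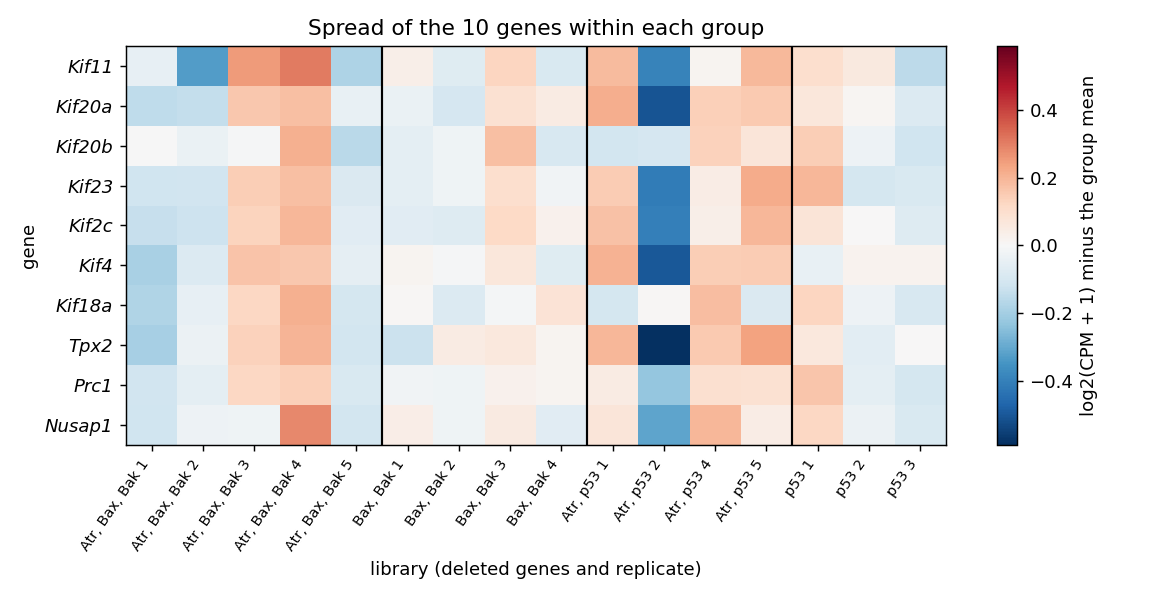
Log2(CPM + 1) minus the group mean, as colour, for each of the 10 genes (rows) in each of the 16 deep libraries (columns, grouped by genotype, with lines between groups). Atr-p53 replicate 2 is blue for most genes but not for Kif18a, which stood at 100% of the mean of the other 3 libraries.

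The genes whose pattern was most like the mean of the 10 were sought among 14521 genes with a mean of at least 1 CPM. The 10 genes themselves and genes with provisional symbols, such as those of the Gm and Rik kinds, were passed over. Over the 16 libraries these were Cdca2 (Pearson r = 0.988), Smc4, Kpna2, Ttk, Usp1 and Ccnb1 (0.981), which mainly follow the difference between groups. Within groups, where that difference is removed, they were Ndc80 (r = 0.971), Smc4, Pum3, Dbf4, Cdca2 and Ckap2l (0.941). The low levels of Atr-p53 replicate 2 are part of this second pattern too. Smc4, a condensin subunit, and Cdca2, a chromosome-bound regulator of mitotic exit, stood among the 6 closest by both measures.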

How the data were processed

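Polyadenylated RNA of 17 cerebellar samples was sequenced in 2 lanes each, per the labels' protocols. Estimated counts, which need not be whole, were deposited for each Ensembl transcript and lane in 2 tables without recorded normalization. The submitters' processing notes name kallisto 0.42.4, edgeR, mm9 and GRCm38, without their roles. Here lanes were added, gene sums were formed with GENCODE M21 (92372 of 94080 identifiers matched, and 0.746% to 1.01% of counts per deep library were unmatched), and sums were rounded. In Atr-p53 replicate 3 both lane columns were identical and were counted once.

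Each background was fitted by genotype with edgeR 4.0.16 in R 4.3.3 (TMM, default expression filter, robust quasi-likelihood F-test), and interactions and comparisons between backgrounds were fitted over the 4 groups. The fits were tested on simulated counts. CPM per kilobase used the annotated transcript lengths, and correlations a pseudocount of 1 CPM. DESeq2 1.42.0, limma 3.58.1 (voom) and other alternatives are in the closing section. The labels give no batch, but sample names carry number series: 1836 (Atr-Bax-Bak), 100019 and 1842 (Bax-Bak controls 1 to 2 and 3 to 4), 1843 (Atr-p53 and p53 control 1) and 1845 (p53 controls 2 to 3), so series and genotype cannot be told apart without Bax and Bak.

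The members and lists were chosen with earlier results of these data known. Named besides the 10 genes are, of each list of kinesins or spindle genes, the 3 with the smallest p without Bax and Bak. Exceptions of the lists and the genes on the opposite strand were named after their values were seen. Marker lists are given as counts and sums, with Atoh1 named besides. Promoters are from RefSeq (GRCm38.p6). Python 3.11.15 with matplotlib 3.10.9, pandas 2.3.3 and numpy 2.4.6 made the tables and plots.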

Additional observations from a re-analysis of the deposited data

Results flagged for a closer look

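Samples apart from their group were sought in 108 groups of 4 or 5 values, by the gap to the nearest other sample over the range of the group, and 12 were found. Chance alone flags about 1 group in 20. Atr-p53 replicate 2 lay apart with Kif20a at 41.0 CPM, Kif4 at 35.5 CPM, Tpx2 at 87.5 CPM, Prc1 at 107 CPM and Ckap2l at 49.7 CPM. It lay apart as well in the summed CPM of the 10 genes, at 559, of the passenger, centralspindlin and abscission genes, at 951, and of the granule progenitor markers, at 1769. Nusap1 was apart at 66.3 CPM in Atr-Bax-Bak replicate 4. In the Bax-Bak controls, Birc5 was apart at 39.2 CPM in replicate 2, Racgap1 at 176 CPM in replicate 1, and the summed CPM of the 10 genes at 853 in replicate 3.

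The difference with floxed Atr was not the same in both backgrounds for 22 of the genes named, by the interaction in edgeR (without Bax and Bak minus without p53, log2). For the 10 genes it was -1.02 for Kif11, -0.87 for Kif20a, -1.09 for Kif20b, -0.90 for Kif23, -0.78 for Kif2c, -0.83 for Kif4, -1.05 for Kif18a, -0.85 for Tpx2, -0.70 for Prc1 and -1.03 for Nusap1. Among other mitotic kinesins it was -0.77 for Kif15, -0.77 for Kif22 and -1.01 for Cenpe. Among the passenger and centralspindlin genes it was -0.67 for Aurkb, -0.81 for Birc5 and -0.76 for Racgap1, and among spindle factors -0.89 for Ckap2l, -1.03 for Dlgap5 and -0.64 for Spag5. In the other direction it was 0.77 for Kif17, 0.35 for Kif21a and 0.41 for Kif26b. The genes outside the 10 were named for their small p without Bax and Bak. That comparison is part of the interaction, so their values here are no separate support.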

How the results depend on the processing

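All 10 genes were called lower without Bax and Bak and in Atr-Bax-Bak against Atr-p53 libraries, and none was called without p53, under each of 22, 26 and 21 alternatives: other scalings, filters and tools, 1 lane, each library left out in turn, the shallow library kept in the fits that hold Atr-p53 libraries, controls of 1 number series in the fits within a background, a joint fit, or the most abundant transcript. No called value changed sign in the alternatives run. The 10 calls of the interaction became 3 with the p53 control of series 1843 only, where a lone control is assumed to vary like the other groups, and remained 10 in number in the other 29 alternatives. Between the controls, the number called was 1 in the fit reported, 2 with a mean of at least 1 CPM, with DESeq2, with limma-voom and with p53 controls of series 1845 only, 3 with lane 1 only, 0 with the p53 control of series 1843 only, and 1 to 4 with each library left out in turn. It was 4 without Atr-p53 replicate 2, 3 without Atr-Bax-Bak replicate 4, and 2 without Atr-Bax-Bak replicate 1, p53 replicate 1 or Atr-p53 replicate 4. Why these counts moved was not tested. Over all genes, the number called ranged from 2 to 128 without p53 (8 as reported), from 454 to 3747 for the interaction (2929) and from 910 to 4702 between the controls (3279). No paired analysis was possible because replicate numbers follow accession order and pair no samples. Calls of transport kinesins without Bax and Bak numbered 14 in the fit reported and 9 for the most abundant transcript. Each of the 10 genes had at least 832 counts in each deep library.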
